A study of Mus musculus with 28 samples.

Results

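The loci described here are 3 clusters of duplicated genes known to differ in copy number between inbred mouse strains: zinc finger gene clusters on chromosomes 2 and 13, and part of the Skint cluster on chromosome 4. That difference is background knowledge, since no inbred strain was measured here. The clusters were chosen from the copy ratios of these tumours, so their values are a description and carry no test. The clusters hold 10 named member genes of 20665 autosomal protein-coding genes, and 87 of the 3727 segments in the data overlap them. The members are Zfp967, Zfp973, Gm14305, Gm14295 and Gm14296 on chromosome 2, Gm10324 and 2410141K09Rik on chromosome 13, and Skint4, Skint3 and Skint9 on chromosome 4.

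DNA copy number was read by exome sequencing of mouse tumours, in which the captured coding parts of the genome are sequenced. AD animals were p53 AD/-, with a dimeric form of p53 opposite a null allele, and RP animals were p53 RP/-, with a monomeric form opposite the same kind of allele. The strain background of both was an equal mix of BALB/C and C57BL6, and animals were followed to their end point; no group carried wild-type p53. Thymic lymphomas, T-cell tumours of the thymus, numbered 7 in AD animals and 7 in RP animals, and sarcomas, tumours of connective tissue, 5 in each. In each of these groups 1 animal also gave an ear sample, so the 28 samples are 24 tumours and 4 ears, and the tumours have copy number segments. Because each animal of a mixed background can inherit its own set of strain alleles, an inherited and a tumour-acquired copy difference cannot be told apart at these clusters from the ratios alone.

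KRAB zinc finger genes encode DNA-binding repressors, many of which silence transposable elements, and they lie in tandem arrays whose members arose by duplication. The annotation names the Zfp members as zinc finger genes and gives the Gm and Rik members only model or clone names. Skint genes encode butyrophilin-like membrane proteins of thymus and skin, and the founding member Skint1 is needed for the selection of a class of epidermal gamma delta T cells. Reads from near-identical copies can be placed on the wrong copy, so copy ratios within such arrays are uncertain for single genes.

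The files listed 59 to 517 segments and 211948 to 212450 markers per tumour, and 0 pairs of tables were identical. A marker is a captured target or window, and read depth is unknown. Autosomal marker totals did not overlap between AD and RP tumours of either type, by a gap of 1 marker in sarcomas, and whether this bears on the values below was not tested. Values are log2 copy ratios of tumour over a comparison DNA, minus the median of the same chromosome in that tumour. A value of 0.3 or above is called gained and one of -0.3 or below lost. Trp53, the engineered gene, was gained in 1 tumour (0.35) and lost in 0 on this scale.

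The promoters of the zinc finger members show how alike the copies are, with the run shared by all printed members of a cluster in capitals. Each promoter runs from 250 bases before to 50 after a listed start. For Gm14295 and Gm10324 that start lies inside the gene span, which begins at 176798179 and 66110374. For the others printed it is the gene's own start. The sequences are 300 bases each, from RefSeq on GRCm38.p6. On chromosome 2 they are Zfp967 (chr2:176520754-176521053, plus strand), Zfp973 (chr2:176670272-176670571, plus), Gm14305 (chr2:176708103-176708402, plus) and Gm14295 (chr2:176798350-176798649, plus):
Zfp967: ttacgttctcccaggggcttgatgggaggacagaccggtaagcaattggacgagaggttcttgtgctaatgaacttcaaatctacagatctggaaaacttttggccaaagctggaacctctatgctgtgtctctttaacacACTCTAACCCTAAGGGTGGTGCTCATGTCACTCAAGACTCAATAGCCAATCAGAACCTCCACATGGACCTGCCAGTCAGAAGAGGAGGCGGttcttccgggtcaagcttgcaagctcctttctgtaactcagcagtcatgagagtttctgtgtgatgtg
Zfp973: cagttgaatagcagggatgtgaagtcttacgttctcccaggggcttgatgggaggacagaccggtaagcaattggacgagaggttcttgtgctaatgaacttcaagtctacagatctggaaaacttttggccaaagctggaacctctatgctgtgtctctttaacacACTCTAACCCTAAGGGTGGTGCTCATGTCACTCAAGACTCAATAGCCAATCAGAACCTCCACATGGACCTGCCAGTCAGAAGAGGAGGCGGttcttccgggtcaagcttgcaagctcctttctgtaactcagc
Gm14305: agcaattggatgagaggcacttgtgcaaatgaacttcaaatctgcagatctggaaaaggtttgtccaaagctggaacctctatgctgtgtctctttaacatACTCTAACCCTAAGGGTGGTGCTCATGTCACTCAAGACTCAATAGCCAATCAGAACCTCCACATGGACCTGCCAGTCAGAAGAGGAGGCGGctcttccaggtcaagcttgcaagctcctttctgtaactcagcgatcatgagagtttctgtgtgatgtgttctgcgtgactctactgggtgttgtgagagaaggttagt
Gm14295: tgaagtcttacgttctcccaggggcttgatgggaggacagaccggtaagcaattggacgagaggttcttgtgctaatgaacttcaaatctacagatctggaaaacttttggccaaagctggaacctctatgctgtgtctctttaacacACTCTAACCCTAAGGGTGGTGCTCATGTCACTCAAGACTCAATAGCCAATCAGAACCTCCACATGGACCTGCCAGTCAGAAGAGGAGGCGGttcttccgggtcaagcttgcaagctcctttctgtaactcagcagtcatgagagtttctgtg
The 4 promoters share a run of 91 bases. It stands in 18 of the 27 promoters found for the 28 protein-coding genes of the cluster and in 0 of the other mouse promoters, or 0.0666% of 27025 in all. Zfp967 and Gm14295 share a run of 293 bases, and Zfp973 shares 194 bases with each of them.

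On chromosome 13 the promoters are Gm10324 (chr13:66113203-66113502, plus) and 2410141K09Rik (chr13:66441069-66441368, minus):
Gm10324: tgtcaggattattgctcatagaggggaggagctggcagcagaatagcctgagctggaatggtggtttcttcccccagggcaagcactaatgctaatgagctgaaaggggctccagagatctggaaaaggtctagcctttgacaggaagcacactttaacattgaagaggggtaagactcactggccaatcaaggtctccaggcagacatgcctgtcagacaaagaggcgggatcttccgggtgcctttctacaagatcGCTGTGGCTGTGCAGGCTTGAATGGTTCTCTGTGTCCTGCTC
2410141K09Rik: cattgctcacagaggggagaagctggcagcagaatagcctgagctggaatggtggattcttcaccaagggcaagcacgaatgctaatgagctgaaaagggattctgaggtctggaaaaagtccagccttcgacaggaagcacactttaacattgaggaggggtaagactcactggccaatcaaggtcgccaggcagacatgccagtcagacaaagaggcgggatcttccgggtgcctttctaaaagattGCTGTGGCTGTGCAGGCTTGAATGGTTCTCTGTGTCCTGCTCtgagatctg
They share a run of 42 bases, which occurs in 4 of the 6 promoters of that cluster and in 3 promoters elsewhere, 0.0259% of 27025. The 3 Skint promoters are less alike, with a longest shared run of 8 to 11 bases between any pair, and none is printed.

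The chromosome 2 cluster, 175175749 to 178032800 on GRCm38 (2.86 Mb), was gained in 4 of 5 AD sarcomas and in 0 of 5 RP sarcomas. AD sarcomas 1 to 5 had 1.11, 0.91, 1.28, 1.14 and 0.01, against 0.0069, 0.0152, 0.0141, 0.0566 and 0.0262 in RP sarcomas 1 to 5. The 4 high AD values averaged 1.11 ± 0.15 (SD, n = 4), a linear ratio of 1.88 to 2.43. AD sarcoma 5 lies within the RP range, so the groups overlap. The AD mean was 0.89 ± 0.51 and the RP mean 0.02 ± 0.02 (SD, n = 5 each), a difference of 0.87. Of 2388 autosomal bins of 1 Mb, 0.126% were gained in at least 4 of 5 AD sarcomas, and 2 of those 3 bins lie in this cluster.

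In all 4 AD sarcomas the gain was the same segment, 176706853 to 178032800, with 63 markers in each. It holds 11 protein-coding genes, among them Gm14305 (176708353 to 176721813), Gm14295 (176798179 to 176814092) and Gm14296 (176892509 to 176927813). The segment to its left had centred values of 0.00 to 0.05 and the one to its right 0.02 to 0.13. The cluster's neighbours Gm14393 and Zfp931 were called in 0 tumours.

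Thymic lymphomas did not carry this segment. AD thymic lymphomas had a lowest value of -0.13, a median of -0.005 and a highest of 0.02, and RP thymic lymphomas had -0.01, 0.003 and 0.14. The means were -0.02 ± 0.05 in AD and 0.03 ± 0.05 in RP thymic lymphomas (SD, n = 7 each), and 0 tumours were called in either group.

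Zfp967 (176521004 to 176533821) and Zfp973 (176670522 to 176681090) lie in a stretch of 1.53 Mb, 175175749 to 176706853, where no marker was seen in the 5 tumours whose segments border it. The stretch holds 17 protein-coding genes. In AD sarcomas 1 to 4 these genes lie between segments and take the value of the nearest one. For Zfp967 and Zfp973 that is the gained segment, 173 kb away from Zfp967. Others, such as Zfp965 and Zfp966, take the segment on the left, with an AD sarcoma mean of 0.02. Of the cluster's 28 protein-coding genes, 18 were called in any AD sarcoma. In RP thymic lymphoma 5 a segment of 2 markers spans the whole stretch at 0.34. The values of Zfp967 and Zfp973 are therefore carried over from markers at its ends. Among all autosomal segment ends, 18 cross a gap at least as wide.

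**Figure D1:**
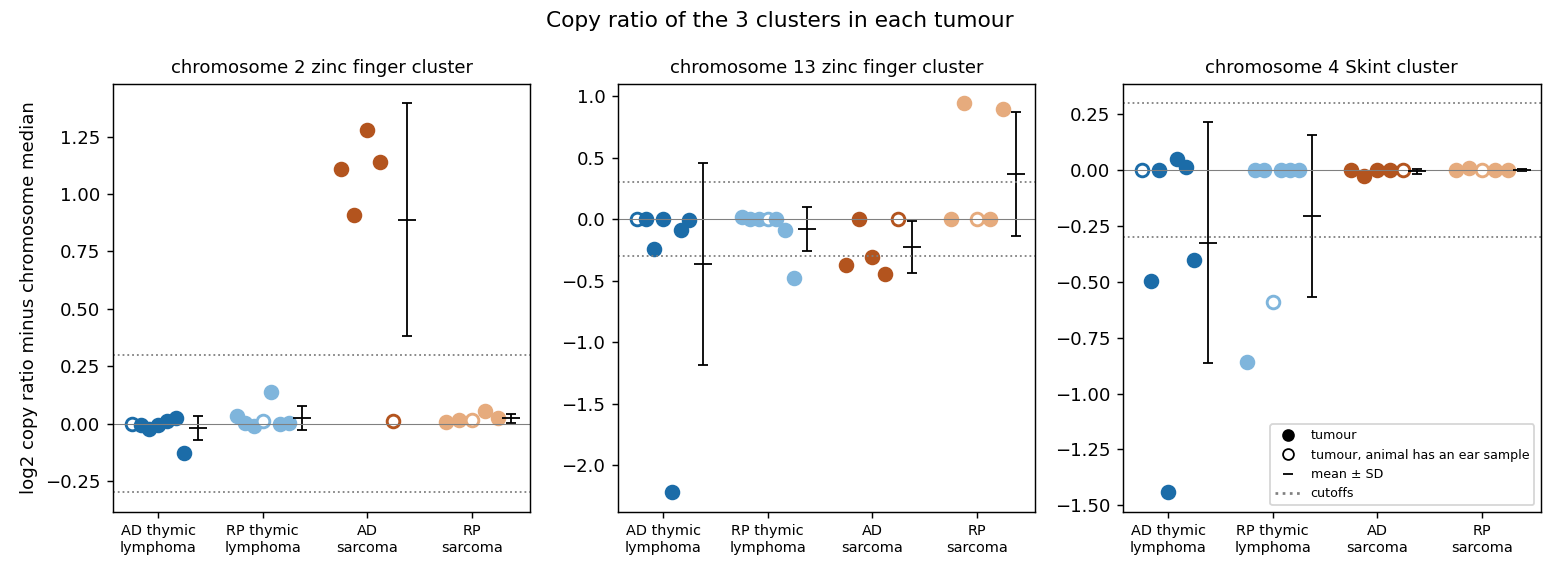
Copy ratio of each cluster (log2, minus the chromosome median; vertical axis) in every tumour, by group, with group means and SD beside them, open circles for tumours whose animal gave an ear sample, and the 0.3 and -0.3 call lines. AD sarcomas 1 to 4 stand at 0.91 to 1.28 on chromosome 2, RP sarcomas 2 and 5 stand at 0.94 and 0.89 on chromosome 13, and 5 thymic lymphomas are lost at the Skint cluster.

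The chromosome 13 cluster, 65897274 to 66419570 (522 kb), showed values of both signs. AD sarcomas 1 to 5 had -0.37, 0, -0.31, -0.44 and 0, against 0, 0.94, 0, 0 and 0.89 in RP sarcomas 1 to 5. It was lost in 3 of 5 AD sarcomas, where 0.0838% of bins were lost in at least 3 (both on chromosome 7, since the cluster is shorter than a bin and its own bins did not reach that count), and gained in 2 of 5 RP sarcomas, where 1.38% of bins were gained in at least 2. The AD mean was -0.22 ± 0.21 and the RP mean 0.37 ± 0.50 (SD, n = 5 each), a difference of -0.59. The 2 groups share tumours at 0, so they overlap.

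Among thymic lymphomas, 1 AD tumour was lost (AD thymic lymphoma 5, -2.22) and 1 RP tumour (RP thymic lymphoma 7, -0.47). The AD values ran from -2.22 through a median of -0.005 to 0, and the RP values from -0.47 through a median of 0 to 0.02. The means were -0.36 ± 0.82 in AD and -0.08 ± 0.18 in RP (SD, n = 7 each), a difference of -0.29, and without AD thymic lymphoma 5 the difference was 0.02. With values as deposited, the cluster was lost in 5 tumours of each genotype; the chromosome 13 medians that are subtracted were low in AD thymic lymphomas 3 (-0.78), 5 (-0.65) and 6 (-0.77) and RP thymic lymphoma 6 (-0.59). Bins lost in at least 1 tumour made up 5.15% in AD and 2.22% in RP thymic lymphomas. AD thymic lymphoma 3, at -0.24, lay just outside the call line, and AD sarcomas 3 and 1, at -0.31 and -0.37, just inside it.

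The losses and gains here had ends in common. AD sarcomas 1 and 3 had the segment 65691428 to 66121212 (14 markers) at -0.62 and -0.51, and AD sarcoma 4 had it in 2 pieces at -0.40 and -0.86. All 3 then had 66156615 to 66162928, with only 2 markers, at -2.54, -2.30 and -2.86. RP sarcomas 2 and 5 had 65691428 to 66418244 (21 markers) at 0.94 and 0.89. Short segments at the right edge were farther from 0 than the cluster mean. AD thymic lymphoma 6 had 66418244 to 66419570 (3 markers) at -2.04, RP thymic lymphoma 6 had 66418720 to 66419570 (2 markers) at -2.48, and RP thymic lymphoma 7 had 66418244 to 66419570 (3 markers) at 0.60, the sign opposite to its larger segment. These lie in 2410141K09Rik and move the cluster mean little.

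Gm10324 (66110374 to 66123709) followed the main segments, lost at -0.62, -0.51 and -0.86 in AD sarcomas 1, 3 and 4 and gained at 0.94 and 0.89 in RP sarcomas 2 and 5. It was also lost in AD thymic lymphoma 5 (-2.22) and RP thymic lymphoma 7 (-0.48). 2410141K09Rik (66418114 to 66441118) crosses the cluster's right end and was called in thymic lymphomas alone, lost in AD thymic lymphomas 1, 3 and 5 (-1.27, -0.45 and -2.21) and RP thymic lymphoma 7 (-0.42). Segments covered 49% to 69% of it in those tumours, so part of the gene was not read. In AD thymic lymphoma 5 its value came mainly from a segment of 25 markers. In sarcomas 2410141K09Rik values ran from -0.14 to 0. The nearest protein-coding genes outside the cluster were called too, Gm53057 on the left in 6 tumours (2 gained and 4 lost) and Gm46427 on the right in 2 AD thymic lymphomas (lost).

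Left of the cluster, a segment of 5 markers, 65546886 to 65596238, had the sign opposite to the next segment in all 6 tumours that held it. It was 1.41 against -2.22 in AD thymic lymphoma 5, 0.61, 0.64 and 0.90 against -0.62, -0.51 and -0.40 in AD sarcomas 1, 3 and 4, and -0.47 and -0.65 against 0.94 and 0.89 in RP sarcomas 2 and 5. Gm19428 is the protein-coding gene it overlaps. The same 3 AD sarcomas also had the chromosome 2 gain, and they were the 3 tumours with calls at 2 clusters.

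**Figure D2:**
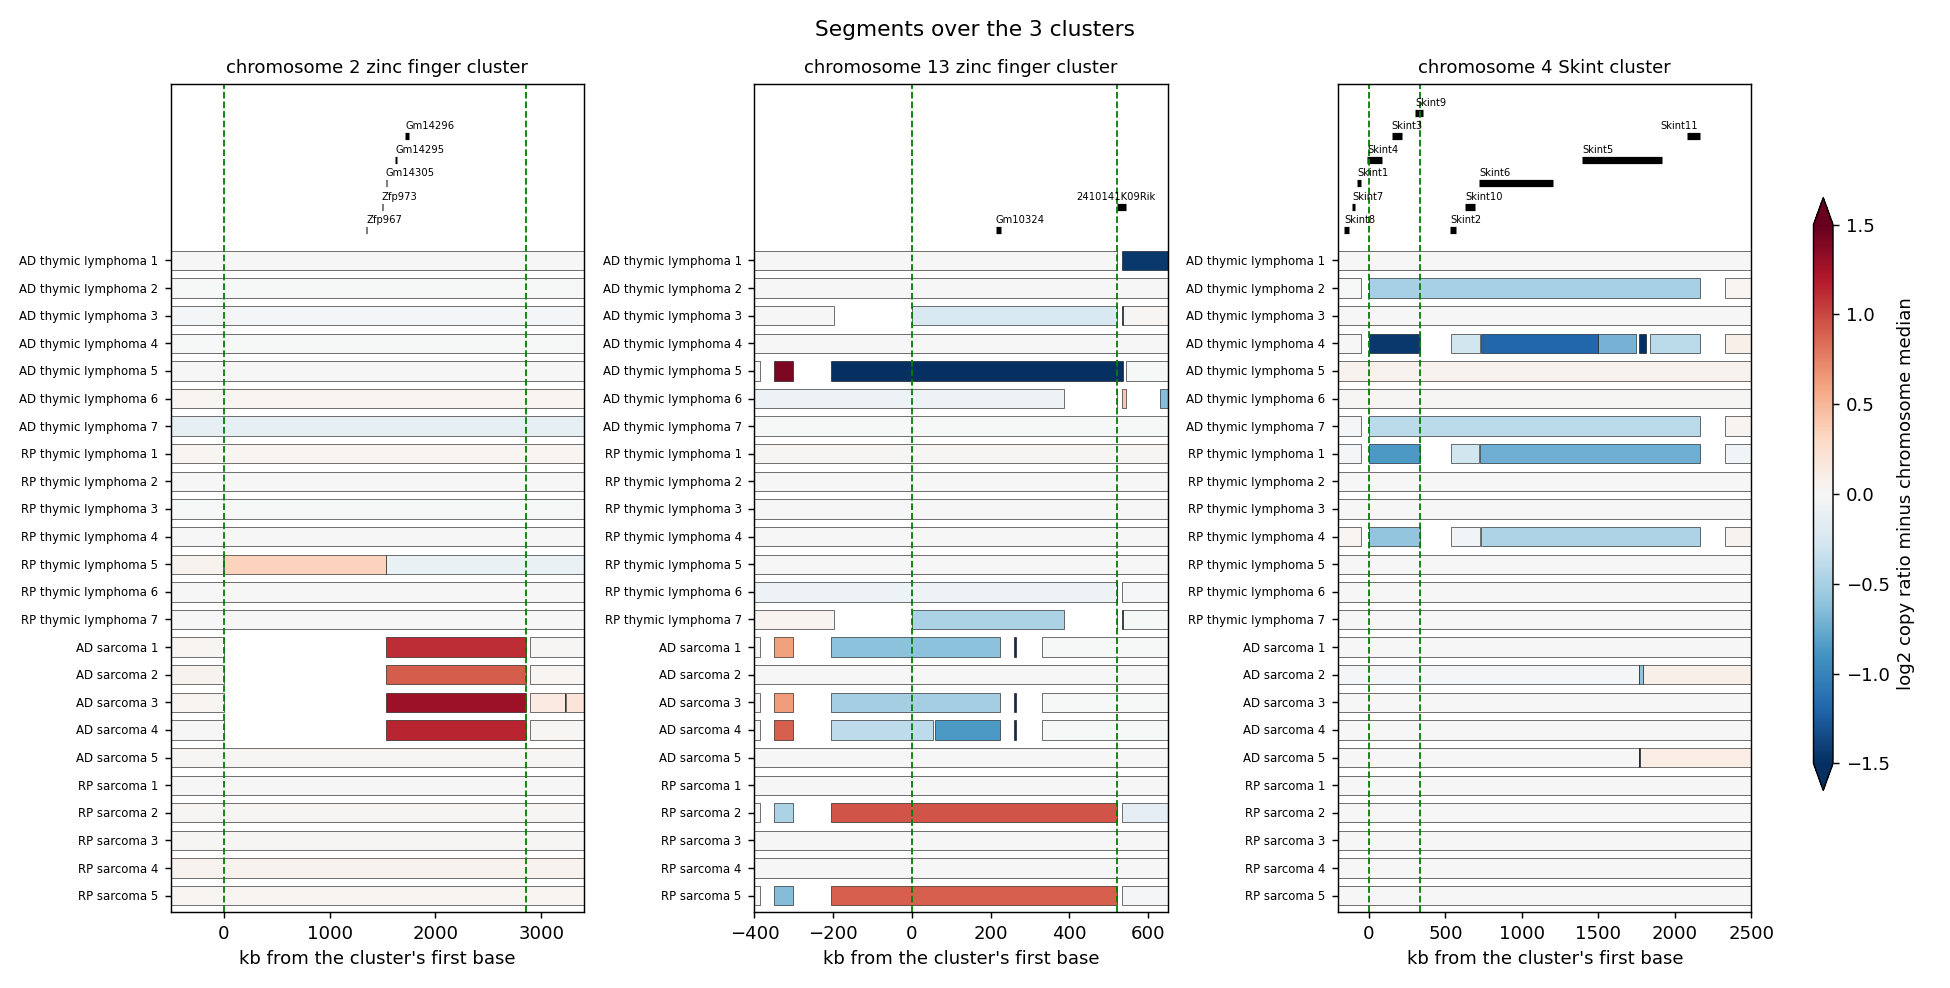
Segments over each cluster and its flanks in kb from the cluster's first base (horizontal axis), 1 row per tumour, coloured by log2 copy ratio minus the chromosome median, with cluster bounds dashed and genes above. White stretches lie between segments, and segments of a few kb are thinner than their outline; the same ends recur between tumours.

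The Skint cluster, 112081699 to 112419096 on chromosome 4 (337 kb), was lost relative to the rest of chromosome 4 in 3 AD and 2 RP thymic lymphomas and in 0 of 10 sarcomas. AD thymic lymphomas 2, 4 and 7 had -0.50, -1.44 and -0.40 and RP thymic lymphomas 1 and 4 had -0.86 and -0.59, with the other 9 thymic lymphomas between 0 and 0.05. The AD mean was -0.33 ± 0.54 and the RP mean -0.21 ± 0.36 (SD, n = 7 each), a difference of -0.12 that is smaller than either spread and was 0.07 without AD thymic lymphoma 4. Losses in at least 3 of 7 tumours were found in 0.335% of bins in AD, and in at least 2 of 7 in 0.838% of bins in RP. Among the 8 AD bins are 112000001 to 113000000 and 113000001 to 114000000 of chromosome 4, which hold this loss itself. AD sarcomas ran from -0.03 to 0 and RP sarcomas from 0 to 0.01.

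These Skint calls depend on the centring. The chromosome 4 medians that are subtracted were above 0 in all 5 tumours, at 0.41, 0.36 and 0.17 in AD thymic lymphomas 2, 4 and 7 and at 0.38 and 0.24 in RP thymic lymphomas 1 and 4. As deposited, the cluster had -0.08, -1.08 and -0.23 in those AD tumours, of which only AD thymic lymphoma 4 stays past the call line, and -0.48 and -0.35 in those RP tumours. As deposited it was also past the line upwards in 1 AD and 3 RP thymic lymphomas. As deposited the AD thymic lymphomas averaged -0.12 and the RP ones 0.11, and centred on all autosomes -0.0063 (AD) and 0.23 (RP).

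Skint4 (112072016 to 112168076), Skint3 (112232245 to 112300468) and Skint9 (112385969 to 112433985) took the cluster's value in each tumour. AD thymic lymphoma 4 and RP thymic lymphomas 1 and 4 had exactly the segment 112081699 to 112419096, with 26 markers. AD thymic lymphomas 2 and 7 had 112081699 to 114244545, with 156 markers over 2.16 Mb. All 5 share the left end, where segments meet across a gap from 112029406, within Skint1, to 112081699, within Skint4. They also share a right end at 114244545. Over the 2.16 Mb the values were -0.50, -0.95 and -0.40 in AD thymic lymphomas 2, 4 and 7 and -0.71 and -0.44 in RP thymic lymphomas 1 and 4.

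The Skint family, a list of 11 genes, divided along these ends. Skint3, Skint4, Skint5, Skint6, Skint9 and Skint11 were lost in all 5 tumours, Skint2 and Skint10 in 2, and Skint1, Skint7 and Skint8 in 0. Losses made up 22 of 77 values in AD thymic lymphomas and 12 of 77 in RP thymic lymphomas, and 0 of 55 in each sarcoma group. Neighbouring Skint genes share segments, so these values come from the losses of the same 5 tumours and are not separate events. Over all 24 tumours, 12.9% of Skint values were lost and 0 gained. Over all autosomal protein-coding genes in the same tumours, 1.56% of values were gained or lost. In AD thymic lymphoma 4 and RP thymic lymphomas 1 and 4, Skint2 and Skint10 had -0.28, -0.29 and -0.06. Within Skint5, AD sarcomas 2 and 5 had short segments at -0.61 (5 markers) and -1.24 (3 markers), too short to change the call of the gene.

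**Figure D3:**
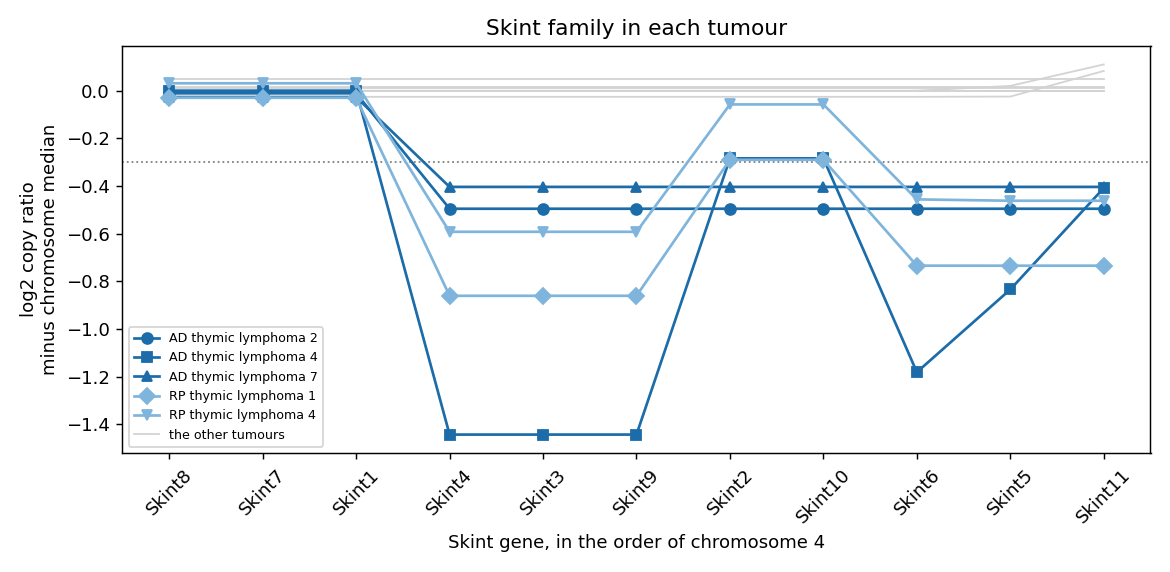
Copy ratio of the 11 Skint genes (log2, minus the chromosome median; vertical axis) along chromosome 4 in the 5 thymic lymphomas with a loss (blue), with the other tumours in grey. Skint1, Skint7 and Skint8 lie outside the loss, and Skint2 and Skint10 are nearer 0 in 3 of the 5 tumours.

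**Figure D4:**
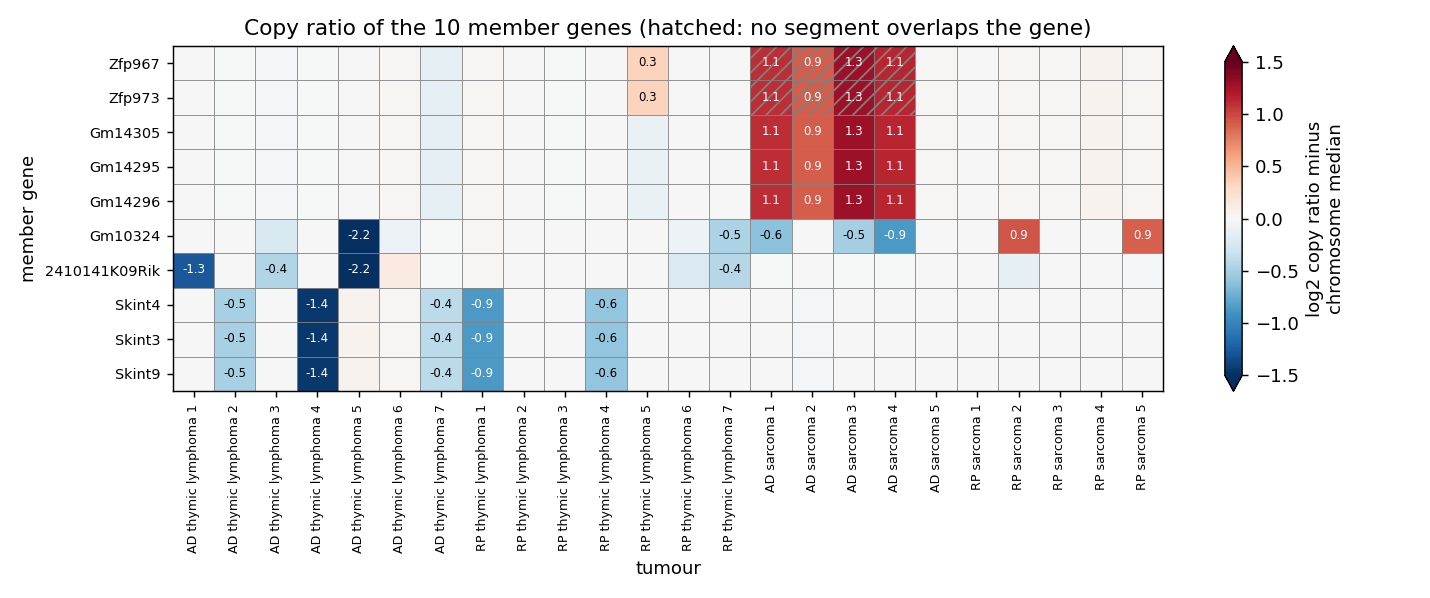
Copy ratio of the 10 member genes (rows) in the 24 tumours (columns), as log2 minus the chromosome median, with called values printed. Hatched cells, Zfp967 and Zfp973 in AD sarcomas 1 to 4, have no overlapping segment and take the nearest one's value.

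Segment ends recurred between tumours, and the choice of the clusters fixed part of this: all 6 of their bounds are themselves ends shared by at least 2 tumours. Nothing is read from the share that follows. Of 14 distinct ends, 10 were found in at least 2 tumours (71.4%), against 17.6% of 2111 autosomal ends, and 5 were found in at least 2 groups. The ends cross wide gaps between markers, with a median of 35.1 kb in the clusters and 3.33 kb over all autosomes, and the part of marker spacing in the sharing was not tested. Markers were also sparser than the autosomal median of 1 per 11.7 kb. The chromosome 2 gain had 1 per 21.0 kb and the Skint cluster 1 per 12.98 kb. On chromosome 13, the segment 65897274 to 66419570 of AD thymic lymphoma 3 had 1 per 24.9 kb. Of 1218 distinct focal segments (5 Mb or shorter and called), 138 had both ends in common between at least 2 tumours, and 7 of these touch the clusters.

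The cluster values were set beside the presence of an ear sample of the same animal. Tumours of such animals had 1 of 12 cluster values called (8.33%), against 15 of 60 in the other tumours (25%). By tumour, 1 of 4 had a call, against 12 of 20. The 1 call was the Skint loss of RP thymic lymphoma 4 (-0.59). These counts depend on the centring, in the other tumours as well. As deposited, AD thymic lymphoma 1 passed the call line on chromosome 13 (-0.41). RP thymic lymphoma 4 passed it there (-0.33) and at Skint (-0.35). Centred on all autosomes, AD thymic lymphoma 1 passed it on chromosome 13 (-0.33), and RP thymic lymphoma 4 did not at Skint (-0.1). Cluster values also miss smaller changes in tumours of animals with an ear sample. AD thymic lymphoma 1 had the member gene 2410141K09Rik lost at -1.27. AD sarcoma 5 had a segment of 3 markers within Skint5 at -1.24. The chromosome 2 gain was missing in AD sarcoma 5, the AD sarcoma with an ear sample, which had 0.01. Such tumours were 1 per group, so the difference has no replicate check within a group, and which tumours were compared with their own ear is not given in the sources used here.

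Recurrent focal segments were counted in the same tumours. AD sarcoma 5 had 4 among 17 focal segments (23.5%), against 14 to 25 among 37 to 48 (37.8% to 52.1%) in the other AD sarcomas. RP sarcoma 3 had 4 among 40 (10%), against 11 to 24 among 27 to 53 (35.5% to 59.3%) in the other RP sarcomas. AD thymic lymphoma 1 had 9 among 44, and its share of 20.5% lay within the 9.50% to 32.4% of the others of its group. RP thymic lymphoma 4 had 13 among 53, and its share of 24.5% lay within the 23.5% to 35.3% of the others. The mean of chromosome X, which is not centred, was -0.06 in AD sarcoma 5 and 0.01 in RP sarcoma 3, 0.71 in AD thymic lymphoma 1 and 1.89 in RP thymic lymphoma 4. It ran from -0.92 to -0.03 in the other AD sarcomas and from -0.05 to 0.91 in the other RP sarcomas. In the other thymic lymphomas it ran from -0.14 to 0.99 (AD) and from -0.25 to 1.37 (RP). The part of chromosome X in the cluster values was not tested.

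**Figure D5:**
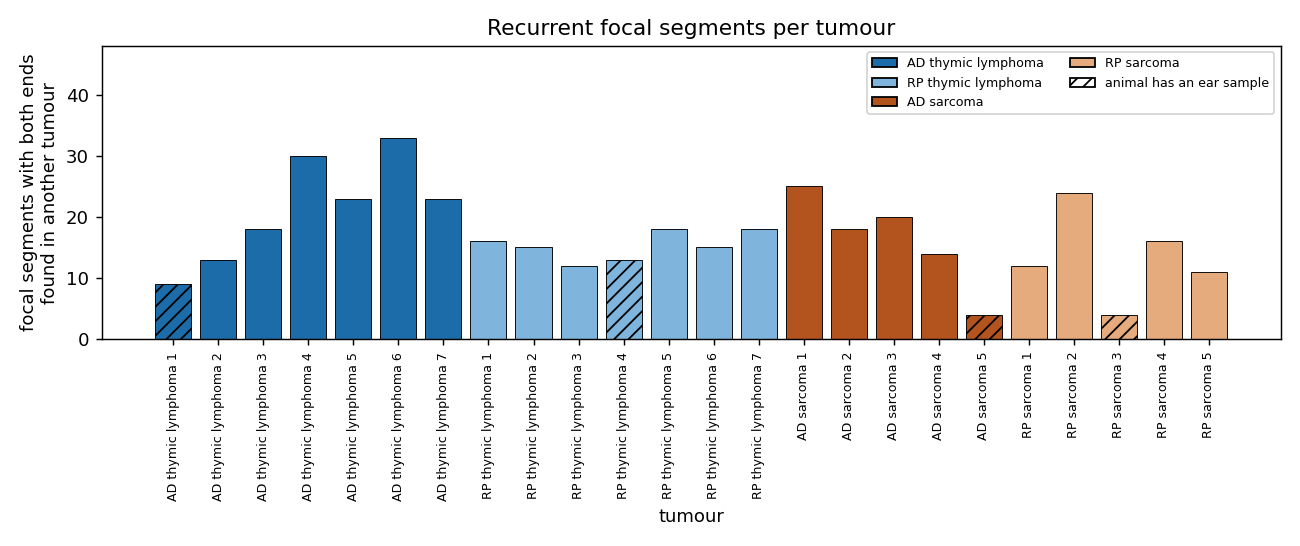
Number of focal segments per tumour whose both ends are also found in another tumour (vertical axis), by group, with tumours whose animal gave an ear sample hatched. The hatched sarcomas have 4 each and the other sarcomas 11 to 25.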

How the data were processed

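For every tumour the authors deposited a segment table whose columns, per the file headers, are chromosome, start, end, marker number and mean. The deposited mean was read as a log2 copy ratio, a base the headers do not state. Markers are a deposited count of captured targets or windows. In the submitters' processing notes the tools are GATK (4.1.0.0), BWA (0.7.17) and Trim Galore (0.6.5), with build GRCm38. What DNA served for comparison and how values were segmented and centred is not given in the sources used here.

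Each value had the length-weighted median of its chromosome in that tumour subtracted, with Python 3.11.15, numpy 2.4.6 and pandas 2.3.3 (plots: matplotlib 3.10.9). A cluster or gene took the mean of its overlapping segments weighted by overlapped length, or the nearest segment where none overlaps. Calls were made at 0.3 and -0.3. Background bins of 1 Mb had a segment in every tumour. Genes came from RefSeq GRCm38.p6, the build of the files. The scripts were tested on simulated segments. Autosomal marker totals by group, lowest to highest, were 204845 to 204849 (AD thymic lymphoma), 204917 to 204922 (RP thymic lymphoma), 205075 to 205076 (AD sarcoma) and 205073 to 205074 (RP sarcoma).

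The clusters, the members and the gene lists were chosen with earlier results of these data known, so no test was run. Named genes are the 10 members, the nearest protein-coding gene on each side of a cluster, the Skint family, Trp53, and the genes farthest from 0 in a list of other strain-variable loci. Alternatives were other centring, weighting by markers, a minimum of 10 markers, call lines of 0.2 and 0.5, shared ends within 1000 or 10000 bases, and leaving out each tumour in turn. Each tumour is 1 replicate, numbered in the order of the labels, which do not say whether animals were littermates.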

Additional observations from a re-analysis of the deposited data

Results flagged for a closer look

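In groups of 5 or 7 tumours, 29 of 52 sets of values had 1 tumour far from the rest, by the gap to its nearest neighbour over the group's range (above Dixon's critical value). Chance flags about 1 in 20 groups when values are normally distributed. Many values here are exactly 0 after centring, so that rate does not apply and the count of flags shows no excess. The genes of a cluster share segments, so these are not separate findings. On chromosome 13, AD thymic lymphoma 5 stood apart at -2.22, as did its gene Gm10324 at -2.22, and RP thymic lymphoma 7 at -0.47, with Gm10324 at -0.48. 2410141K09Rik stood apart in RP sarcoma 2 at -0.14. On chromosome 2, AD thymic lymphoma 7 stood apart at -0.13, with the same value for Zfp967, Zfp973, Gm14305, Gm14295 and Gm14296. RP thymic lymphoma 5 stood apart at 0.14 over the cluster, at 0.34 for Zfp967 and Zfp973, and at -0.1 for Gm14305, Gm14295 and Gm14296. At the Skint cluster, AD thymic lymphoma 4 stood apart at -1.44, and so did Skint3, Skint4 and Skint9. AD sarcoma 2 (-0.03) and RP sarcoma 2 (0.01) stood apart from groups whose other values are 0, for the cluster and for Skint3, Skint4 and Skint9.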

How the results depend on the processing

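The labels match 4 tumours to an ear of the same animal. No paired analysis was made, because the ears have no segment values here and no test was run. Of 159 alternative values of cluster means, counts, differences and shared ends, 129 stayed within the spread between tumours (counts within 1.5 times) and 30 moved; the cause was not tested. The main chromosome 2 gain was called in 4 AD sarcomas under each setting tried except those that leave a tumour out. With values as deposited, the chromosome 2 mean was -0.178 in AD thymic lymphomas and -0.0367 in RP sarcomas, the chromosome 13 mean -0.441 in RP thymic lymphomas, and the Skint mean -0.0223 in AD sarcomas and -0.0448 in RP sarcomas. Centred on all autosomes, the chromosome 2 mean was 0.138 in RP thymic lymphomas and -0.00912 in RP sarcomas, the chromosome 13 mean -0.320 in RP thymic lymphomas, and the Skint mean 0.227 in RP thymic lymphomas, 0.00738 in AD sarcomas and -0.0173 in RP sarcomas. The AD minus RP difference on chromosome 2 in thymic lymphomas was -0.195 as deposited and -0.203 centred on all autosomes, and at Skint in sarcomas 0.0226 and 0.0247. As deposited, the called thymic lymphomas were 1 AD on chromosome 2 (lost), 5 AD and 5 RP on chromosome 13 (all lost), and 2 AD (1 gained, 1 lost) and 5 RP (3 gained, 2 lost) at Skint. Centred on all autosomes they were 2 RP on chromosome 2 (gained), 4 AD and 3 RP on chromosome 13 (all lost), and 2 AD (1 gained, 1 lost) and 4 RP (3 gained, 1 lost) at Skint. Weighted by markers, chromosome 13 was called in 2 AD and 2 RP thymic lymphomas. At a call line of 0.2 it was called in 2 AD thymic lymphomas. At a call line of 0.5 it was called in 0 RP thymic lymphomas and 0 AD sarcomas, and Skint in 1 AD thymic lymphoma. With at least 10 markers, chromosome 13 was called in 1 AD sarcoma. Leaving out 1 tumour at a time, the AD minus RP difference in thymic lymphomas ran from -0.353 to 0.0221 on chromosome 13 and from -0.227 to 0.0682 at Skint, and counts ranged from 0 to 1 in AD and in RP thymic lymphomas and from 1 to 2 in RP sarcomas on chromosome 13, and from 1 to 2 in RP thymic lymphomas at Skint. Of 10 shared ends in the clusters, 10 of 14 were shared within 1000 bases, 9 of 13 within 10000 bases, and 7 of 13 with at least 10 markers. Of the alternative values of the member genes that keep all tumours, 159 stayed within the spread and 41 moved, all but 1 of them under another centring.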

Other observations

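A list of 22 genes at other loci known to vary between strains was read in the same way. By group, called values made up 15.6% in AD and 9.74% in RP thymic lymphomas, and 0.909% in AD and 4.55% in RP sarcomas. Over all tumours the list had 21 gained and 24 lost of 528 values, or 8.52%. The share over all autosomal protein-coding genes was 1.56%. Neighbouring genes of the list share segments, so these values are not separate events and the difference was not tested. Zfp600 and Rex2, both on chromosome 4, were called in 8 and 5 tumours. Glo1, which detoxifies methylglyoxal, was gained in AD thymic lymphoma 4 (0.95) and lost in AD thymic lymphoma 2 (-0.90). Sirpb1b was gained in AD thymic lymphomas 3, 4 and 5 (0.43, 0.90 and 0.37). Klra1, Klra3, Klra4, Klra7, Klra8 and Klra9, receptors of natural killer cells, were gained in AD thymic lymphoma 3 (0.70), and Klra3, Klra4, Klra7, Klra8 and Klra9 were lost in AD thymic lymphoma 4 (-0.41). Defa17, an intestinal defensin, was gained in AD thymic lymphoma 7 (0.72) and lost in RP thymic lymphoma 5 (-0.49) and AD sarcoma 2 (-0.39).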
